A study of Mus musculus with 24 samples.

Results

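The genes described here build, join and drive the synapse. They are 45 genes of 3 roles: scaffold proteins of the postsynaptic density (13 genes), adhesion proteins that bridge the synaptic cleft (15 genes) and proteins of vesicle release (17 genes). They were listed by function, with earlier results of these data known, and their cytosines are those lying inside the gene or within 2 kb of it in the GENCODE M21 annotation of the mouse genome GRCm38 (mm10). Of 29987 annotated genes with a measured cytosine in that reach, 45 are these genes, and together they hold 3455 CpGs, 0.453% of the table. A CpG in these counts is a measured cytosine, so a site measured on both strands counts once for each strand. On the side of the synapse where each works, 22 were counted as presynaptic, 19 as postsynaptic and 4, Cadm1 to Cadm4, as both. Dentate gyrus of female C57BL/6JRj mice was micro-dissected and its DNA methylation measured by reduced representation bisulfite sequencing (RRBS), a method that reads CpG-rich fragments cut at CCGG sites. The Young STD group held 5 mice aged 1.5 months in standard cages, the Aged STD group 7 mice aged 14 months in standard cages, and the Aged ENR group 7 mice aged 14 months that had spent most of their lives in environmental enrichment, a large enclosure with tunnels and toys whose layout was changed. The labels give no engineered allele for any group. Libraries of young enriched mice, which the labels also list, were not analysed here.

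A chemical synapse works as a chain of proteins. Before the cleft, synapsins hold vesicles in a reserve pool, the active zone proteins of the Rims, Unc13, Erc, Bsn and Pclo families dock and prime them, and the SNARE proteins from Snap25, Stx1a and Vamp2 fuse them when Syt1 senses calcium. Across the cleft, neurexins and receptor phosphatases of the LAR type bind neuroligins, Lrrtm proteins and other partners, and Cadm proteins bind each other. Behind the postsynaptic membrane, Dlg proteins anchor glutamate receptors, Dlgap proteins link Dlg to Shank, and Homer ties Shank to metabotropic receptors. In neurons, the CpG-rich start of an active gene is usually free of methylation, whereas CpGs in the body of a long gene usually carry it.

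Each value is the percent of reads at a cytosine that were read as methylated in one mouse, so a level is a mean over all cells of the tissue, and a change in the mix of cells cannot be told apart from a change within cells. Bisulfite also does not separate methylation from hydroxymethylation. Read numbers were not in the table, so the depth behind a value is unknown. Between 489796 and 725449 CpGs were measured per mouse, 2146 to 3260 of them in the synaptic genes, and 312 synaptic CpGs were measured in all 19 mice. Coverage was not the same in every library. For each mouse a composition index was computed, the Young STD mean of whichever CpGs that mouse had values for. It lay between 30.5 and 32.1 in the Young STD mice. In Aged STD replicates 3, 4 and 6 it was 19.6, 20.8 and 19.5, and in replicate 5 it was 38.0. In Aged ENR replicates 4 and 6 it was 23.4 and 36.2. These 6 mice lay over 5 points from the median of all mice, and results are given with and without them where they matter. Region levels were therefore built from the deviation of each measured CpG from its own mean, so that a mouse is not low only because it covered unmethylated CpGs. Such a level can fall slightly below 0 or above 100.

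The sequences below are a selection from the places named in the results, shown so that the spacing of the measured CpGs can be seen. Each is the plus strand of GRCm38, 5′ to 3′, and capitals mark the measured CpGs. The first 2 are CpG clusters (runs of at least 4 measured cytosines with gaps of at most 100 bases) inside introns of Cadm1 and Cadm4. The next 2 are the stretches of the Dlg1 gene body with more than 1 measured CpG, and the last is a stretch of the Homer1 body.
Cadm1 intron cluster, chr9:47598670-47598747: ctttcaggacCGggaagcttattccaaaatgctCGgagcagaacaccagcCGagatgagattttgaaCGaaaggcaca
Cadm4 intron cluster, chr7:24485815-24485919: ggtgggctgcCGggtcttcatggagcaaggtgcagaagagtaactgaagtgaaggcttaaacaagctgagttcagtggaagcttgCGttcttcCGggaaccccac
Dlg1 body, first stretch, chr16:31704593-31704678: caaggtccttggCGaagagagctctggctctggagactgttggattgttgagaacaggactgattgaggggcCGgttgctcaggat
Dlg1 body, second stretch, chr16:31740526-31740612: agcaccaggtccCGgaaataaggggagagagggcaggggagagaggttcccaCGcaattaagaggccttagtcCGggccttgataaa
Homer1 body stretch, chr13:93399675-93399756: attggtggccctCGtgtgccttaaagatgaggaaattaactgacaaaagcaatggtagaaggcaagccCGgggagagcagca
The first Dlg1 stretch had a mean level of 56.5% in Young STD, 15.1% in Aged STD and 38.8% in Aged ENR, and the second 26.1%, 7.40% and 9.72%. At the first stretch 4 Aged STD and 3 Aged ENR mice had values, and the Aged ENR mice ran from 0% to 88.9% at one CpG and from 0% to 100% at the other. The Homer1 stretch had 42.4%, 20.7% and 10%. In Aged ENR its first CpG was at 0% in all 5 mice with a value, and its second was at 100% in 1 mouse and at 0% in the other 4. Another stretch of the Homer1 body, with 3 CpGs, had 49.3% in Young STD, 69.1% in Aged STD and 37.1% in Aged ENR. At 2 of these 3 CpGs only 3 Aged STD mice had values, from 25.97% to 100% and from 0% to 100%. The levels of stretches are means of their measured CpGs, and the tests on whole regions follow with the results.

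The starts of the synaptic genes were nearly free of methylation in all 3 groups. A promoter was taken as all CpGs within 1000 bases of any annotated transcript start, and 41 of the 45 genes had at least 5 such CpGs. In Young STD mice 36 of the 41 promoters lay under 10%, with a median of 2.26%. Lrrtm3, Lrrtm4, Rims3 and Rims4 had fewer than 5 promoter CpGs and are not among them. The lowest promoter level was that of Cadm2 at 0.191%, and all 13 scaffold promoters lay under 10%, the highest being Dlg2 at 7.82%. Above 10% stood 5 promoters: Syn3 at 61.6%, Ptprf at 36.5%, Stx1a at 25.3%, Bsn at 18.6% and Nrxn2 at 10.3%.

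In Ptprf and Stx1a the methylated promoter CpGs lay at later starts. When the transcript starts of each gene were split into windows, 65 of 191 windows, in 40 genes, held at least 5 CpGs. Neighbouring windows can overlap, and windows 1 and 2 of Erc2 had the same 17 CpGs, so these are counted under both. All 37 windows at the first start of a gene lay under 10% in Young STD mice. Of the 28 later windows 21 were also under 10%, 4 lay between 10% and 50%, and 3 above 50%. Ptprf, which codes for a presynaptic LAR-type receptor phosphatase, was at 7.999% in its first window and at 97.0% and 82.2% in 2 later ones. Stx1a, the plasma membrane SNARE syntaxin, was at 4.62% in its first window and 61.5% in a later one. No protein-coding transcript starts in these 3 methylated windows. The 4 windows in between were later starts of Shank3 (21.5%), Dlg2 (21.1%), Ptprs (17.7%) and Nrxn2 (15.8%). Syn3, whose windows held at most 4 CpGs each, could not be split.

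Both kinds of start are shown here for Stx1a and Ptprf, because their CpG content can be seen in the sequence. All are plus strand of GRCm38 with measured CpGs in capitals, and Ptprf itself lies on the minus strand.
Stx1a, first start, chr5:135023717-135023807: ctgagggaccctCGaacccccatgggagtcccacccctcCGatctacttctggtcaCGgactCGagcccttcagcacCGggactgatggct
Stx1a, later start, chr5:135041981-135042065: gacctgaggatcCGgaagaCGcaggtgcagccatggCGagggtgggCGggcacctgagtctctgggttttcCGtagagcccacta
Ptprf, first start, chr4:118291076-118291167: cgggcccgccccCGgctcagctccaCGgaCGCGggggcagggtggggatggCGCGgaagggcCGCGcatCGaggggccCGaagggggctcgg
Ptprf, later start, chr4:118231663-118231747: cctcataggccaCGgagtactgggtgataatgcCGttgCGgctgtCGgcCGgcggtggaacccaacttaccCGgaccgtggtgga
The stretch at the first Stx1a start was methylated at 0.200%, 0% and 1.02% in Young STD, Aged STD and Aged ENR, and the one at the later start at 60.5%, 59.8% and 49.8%. For Ptprf the same values were 0.347%, 1.07% and 1.53% at the first start against 97.0%, 100% and 97.7% at the later one. Over whole windows, the ratio of observed to expected CpGs had a median of 0.576 in the 58 windows under 10%, 0.333 in the 4 windows between 10% and 50%, and 0.280 in the 3 windows above 50%.

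**Figure D1:**
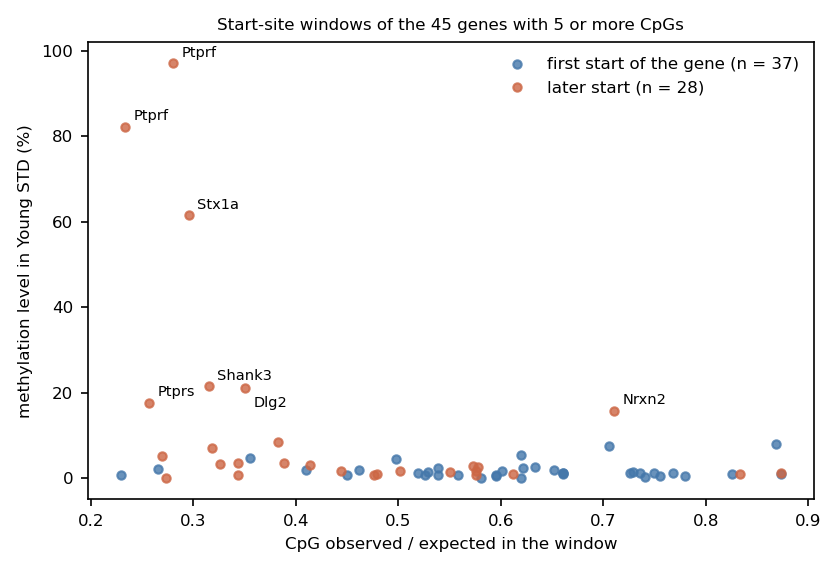
Mean methylation in Young STD mice (vertical axis, %) against the ratio of observed to expected CpGs (horizontal axis) for 65 windows around transcript starts of synaptic genes; first starts (n = 37) and later starts (n = 28) have different symbols. All first starts lie under 10%, and the 3 windows above 50% are later starts of Ptprf and Stx1a.

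The gene bodies were far more methylated and far more varied. A gene body was all CpGs in the gene outside its promoters, and 39 genes had at least 5. The other 6 were Homer3 with 4 CpGs, Nlgn2 with 3, and Lrrtm2, Snap25, Vamp2 and Unc13b with 0. In Young STD mice 2 of the 39 bodies lay under 10%, 23 between 10% and 50% and 14 above 50%, with a median of 42.4%. Of 35 genes with both regions, 34 had a higher body than promoter, by a median of 35.8 points. The exception was Syn3, a synapsin, whose body stood 26.0 points below its promoter. The same 34 to 1 split was found in Aged STD and in Aged ENR mice.

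Levels differed between close relatives. Among release genes, the priming factor gene Unc13c had the highest body at 89.7% and the active zone scaffold Pclo followed at 87.7%, Erc1 at 81.9% and Rims2 at 78.3%. Their close relatives were lower: Unc13a was at 18.2%, Rims1 at 23.5%, Rims3 at 29.2%, Rims4 at 32.4%, Bsn at 40.7% and Erc2 at 56.97%. The SNARE gene Stx1a stood at 66.2%, the calcium sensor Syt1 at 61.0%, and the synapsins Syn2 and Syn3 at 39.5% and 35.5%. Among adhesion genes the postsynaptic partners Lrrtm4 (79.8%) and Nlgn1 (76.8%) were high and Lrrtm3 stood at 44.4%. Lrrtm1 had the lowest body of all, at 2.72%. All 49 CpGs of Lrrtm1 and all 28 of Lrrtm3 lie in a second, larger gene as well, so these values belong to both.

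On the presynaptic side of adhesion, Ptprd (73.2%) and Nrxn3 (70.9%) exceeded Ptprf (45.6%), Ptprs (26.0%) and Nrxn2 (22.05%). The Cadm genes ran from 60.1% in Cadm2 through 49.6% in Cadm4 and 37.5% in Cadm1 to 15.04% in Cadm3. Scaffold bodies were lower as a group, with 10 of 12 under 50%. Homer1 (53.0%) and Dlg1 (52.0%) were the highest of them, Shank1 (8.84%) and Dlg4 (18.3%) the lowest. The rest lay between 34.3% in Dlgap4 and 47.9% in Dlg2, with Dlgap1 at 34.4%, Dlgap3 at 34.7%, Shank2 at 39.9%, Dlgap2 at 40.1%, Homer2 at 42.4% and Shank3 at 47.6%. These are descriptions of level, and neighbours in this order often differed by less than the SD between mice, which was 1.63 points for Dlg2 and 8.45 points for Shank3.

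**Figure D2:**
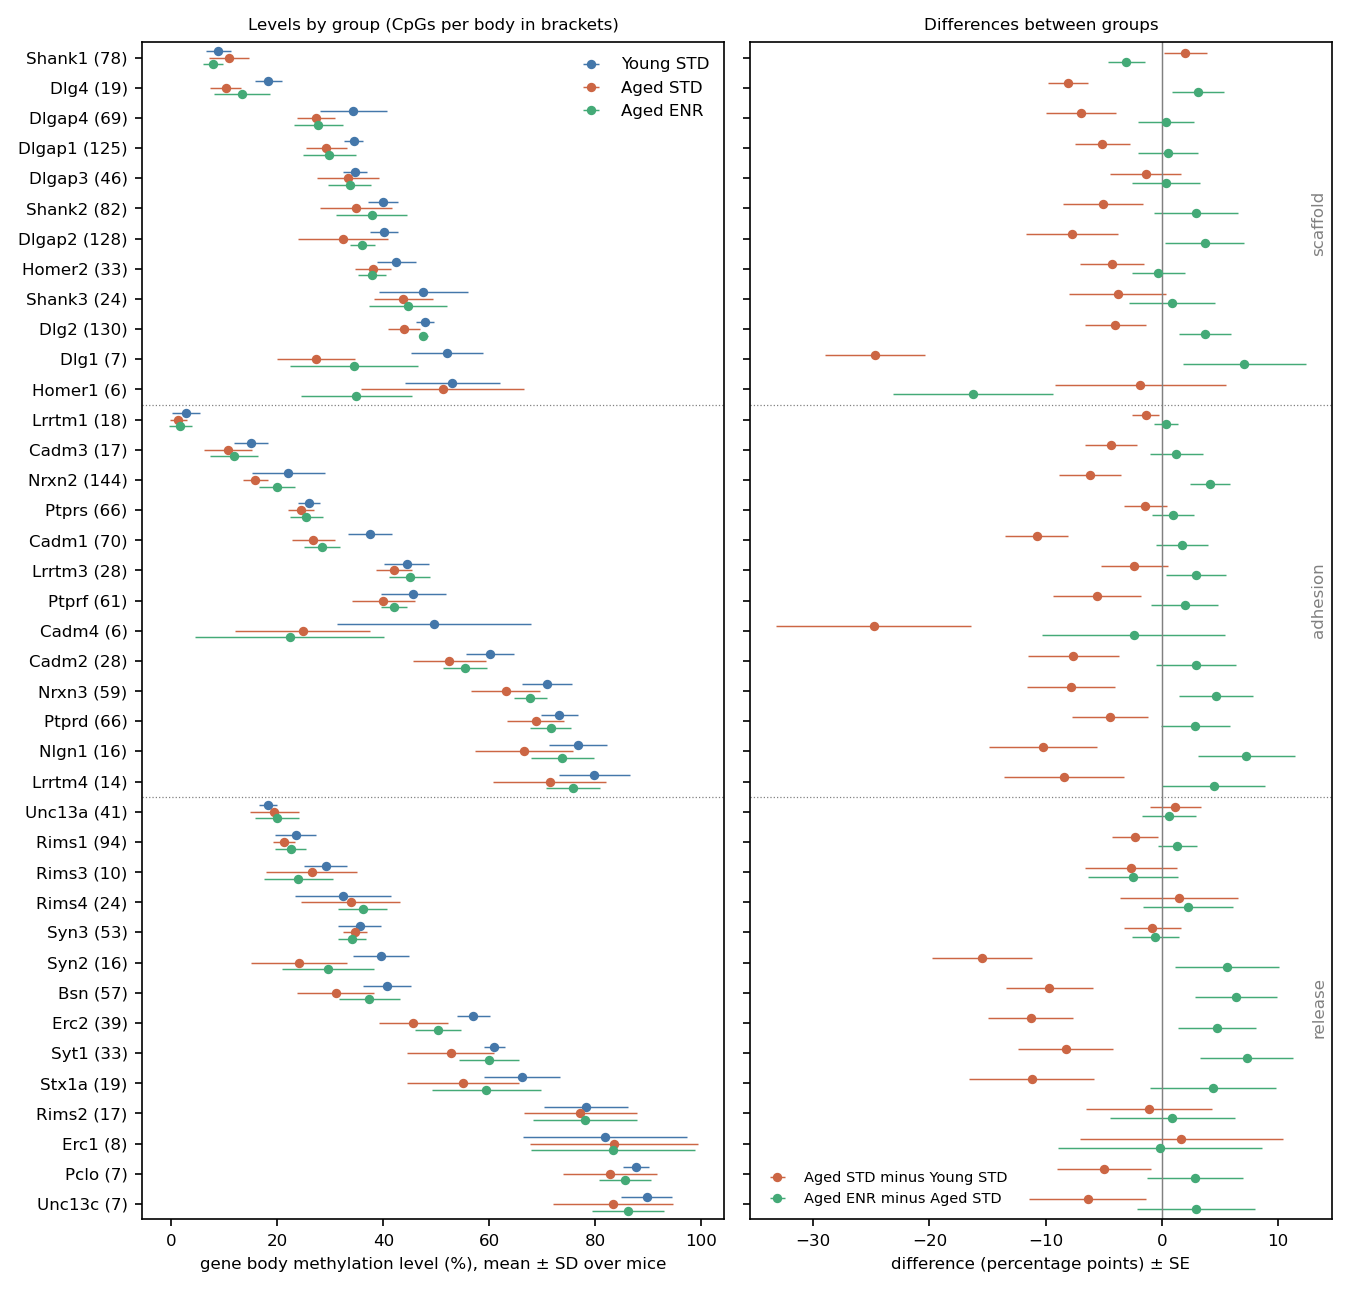
Methylation of the 39 gene bodies, ordered by role. The left panel gives the group mean with SD over mice (%), the right panel the difference of group means with its SE (percentage points) for Aged STD minus Young STD and Aged ENR minus Aged STD. Most bodies lie to the left of 0 in the first difference (35 of 39) and to the right of 0 in the second (32 of 39).

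By place, promoter CpGs of these genes (n = 1634) averaged 5.29% in Young STD, 4.82% in Aged STD and 5.19% in Aged ENR. Intronic CpGs (n = 1405) averaged 43.1%, 37.4% and 39.7%. Exonic CpGs outside UTRs (n = 285) averaged 24.9%, 24.5% and 25.04%, and UTR CpGs (n = 82) averaged 29.8%, 28.2% and 25.6%. The spread between the groups was thus widest in introns. Of the synaptic CpGs 59.6% were at or under 10% in Young STD mice, against 56.2% of all CpGs in the table, and 13.5% were above 80%, against 21.5%.

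The first question was what differs with age in standard cages. The body level averaged over the 32 genes measured in every mouse was 38.5%, 39.6%, 39.2%, 43.1% and 43.6% in the 5 Young STD mice. In Aged STD it ran from 31.2% over a median of 36.6% to 41.1%, and in Aged ENR from 35.7% over 37.7% to 40.5%. In 6 of 7 Aged STD mice and 5 of 7 Aged ENR mice the level was below that of every Young STD mouse, yet the ranges of all groups overlapped. The group means were 40.8% ± 2.37 (SD, n = 5), 35.4% ± 3.55 (SD, n = 7) and 37.8% ± 1.62 (SD, n = 7). The difference of Aged STD from Young STD was -5.46 points. Aged ENR stood between the other groups, 2.41 points above Aged STD and with a difference of -3.05 points from Young STD. No test was run on this mean, since the genes were picked with earlier results known. The same mean over 6244 gene bodies of all genes was 46.6%, 42.4% and 44.1%.

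Library series and coverage moved with this level. The library names fall into 2 series, here called 27 and 37 after their first digits, each with mice of all groups. Within series 27 the difference between Aged STD and Young STD was -4.81 points, and within series 37 it was -6.60 points. Between Aged ENR and Aged STD the same differences were 2.89 and 1.76 points, and between Aged ENR and Young STD -1.92 and -4.84 points. The composition index of the mice went with the body level (Pearson r = 0.860 over 19 mice, given as a description), as it did for all genes (0.931). With the index as a covariate the 3 differences were -2.86 (Aged STD minus Young STD), 1.03 (Aged ENR minus Aged STD) and -2.31 points (Aged ENR minus Young STD). Without the 6 mice of outlying index they were -4.67, 0.45 and -4.21 points. The difference between Aged ENR and Aged STD in this mean was thus reduced from 2.41 to 0.45 points without those mice, and that between Aged STD and Young STD from -5.46 to -2.86 points with the index as a covariate. All 3 differences kept their sign in both settings. How much of each difference comes from coverage was not tested.

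**Figure D3:**
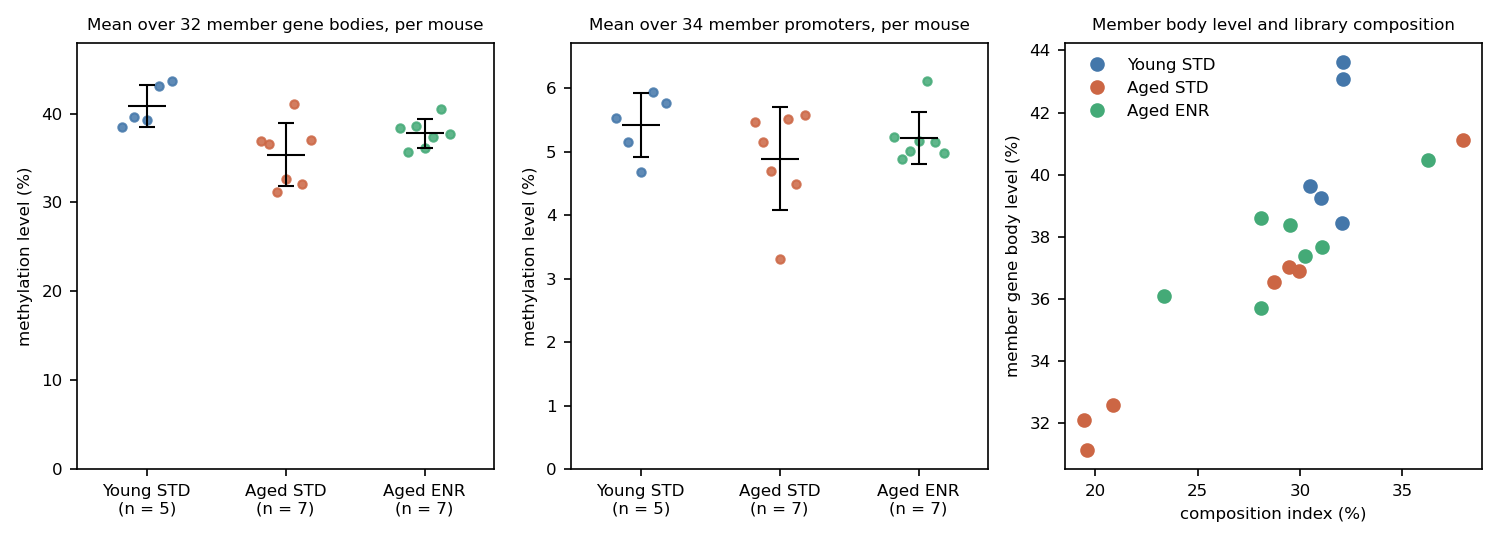
Methylation per mouse, as points with mean and SD for each group: the mean of 32 gene bodies (left, %), the mean of 34 promoters (middle, %), and the body mean against the composition index of the mouse (right, % on both axes). Ranges overlap between groups in both means, and mice of low index have low body levels.

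Gene by gene, 35 of 39 synaptic bodies were lower in Aged STD than in Young STD, where 74.1% of all 10324 bodies tested were lower. Their median difference was -5.08 points, against -3.17 points for all bodies. None was called by limma at an adjusted p under 0.05 (0.00969% of all bodies were, a single one), and the smallest adjusted p was 0.116. An unadjusted p under 0.05 was reached by 11 bodies, all lower in Aged STD. These were 28.2% of the 39, whereas 13.5% of all bodies reached it and 12.5% did so with Aged STD lower. The count fell to 6 bodies without Young STD replicate 5 (9.77% of all bodies), and to 7 without Young STD replicate 4 (9.86%) or Aged STD replicate 6 (10.7%). It was 17 without Aged STD replicate 5 (20% of all bodies). All 13 adhesion bodies were lower, with a median of -6.21 points. In the scaffold 11 of 12 were lower, with a median of -4.68 points, and in release 11 of 14, with a median of -3.85 points. The bodies that were higher were Shank1 (2.02 points), Erc1 (1.67), Rims4 (1.44) and Unc13a (1.15).

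Of the scaffold genes Dlg1 and Dlg4 had the smallest p. Both code for proteins that anchor glutamate receptors. Dlg1 (chr16:31663443-31875129, plus strand) was at 56.0%, 45.4%, 47.2%, 49.6% and 61.9% in the 5 Young STD mice, at 19.8% to 34.7% with a median of 27.5% in 6 Aged STD mice, and at 20.8% to 51.1% with a median of 32.4% in Aged ENR. Every Aged STD mouse was below every Young STD mouse, the only synaptic body of the 39 where the ranges of these groups were apart (1.52% of all bodies were apart with Aged STD lower), whereas Aged ENR overlapped both. The difference between Aged STD and Young STD was -24.7 ± 4.31 points (SE), with an adjusted p of 0.116 by limma and 0.0903 to 0.430 over 6 alternatives. Without Aged STD replicate 5 it was -26.4 ± 4.42 points with an adjusted p of 0.0377, past the threshold. The level rests on 7 intronic CpGs in 3 groups over 1 kb apart, 2 of which hold the stretches printed above, and all 7 were lower in the Aged STD mean and in the Aged ENR mean than in Young STD.

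Dlg4 (chr11:70016942-70047522, plus strand, 19 body CpGs) was at 14.8%, 18.8%, 16.6%, 20.4% and 21.0% in Young STD, at 6.62% to 15.2% with a median of 10.1% in Aged STD and at 6.23% to 22.3% with a median of 13.3% in Aged ENR. Only the highest Aged STD mouse reached the lowest Young STD mouse. The difference was -8.09 ± 1.72 points (SE, limma, adjusted p = 0.141, 0.118 to 0.450 over 8 alternatives). Other scaffold bodies with an unadjusted p under 0.05 were Dlgap4 (34.3% to 27.4%) and Dlgap1 (34.4% to 29.3%), and 22 of the 69 body CpGs of Dlgap4 and 36 of the 125 of Dlgap1 also lie in another gene.

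Among adhesion genes Cadm1 and Cadm4 had the smallest p. Cadm1 (chr9:47530173-47857637, plus strand, 70 body CpGs) was at 39.1%, 37.1%, 31.9%, 36.2% and 43.3% in Young STD, at 22.4% to 33.4% with a median of 25.8% in Aged STD, and at 24.2% to 32.6% with a median of 29.3% in Aged ENR. One Aged STD mouse, replicate 5, and 2 Aged ENR mice, replicates 4 and 6, lay above the lowest Young STD mouse. The difference between Aged STD and Young STD was -10.8 ± 2.70 points (SE, limma, adjusted p = 0.178, 0.0771 to 0.521 over 9 alternatives).

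Cadm4 (chr7:24482023-24504539, plus strand) was at 50.1%, 51.1%, 29.3%, 78.1% and 39.2% in Young STD. It lay at 16.3% to 50.6% with a median of 20.3% in 6 Aged STD mice and at 0.314% to 48.8% with a median of 18.4% in Aged ENR. All Aged STD mice but replicate 5 were below every Young STD mouse. The difference was -24.8 ± 8.37 points (SE, limma, adjusted p = 0.276, 0.230 to 0.697 over 7 alternatives), and over these alternatives it ran from -30.8 to -14.3 points. All 6 measured cytosines of the Cadm4 body, among them both strands of a single CpG, were lower in both aged means. Nrxn2 (22.05% to 15.8%) and Nlgn1 (76.8% to 66.5%), a neurexin and a neuroligin, were the other adhesion bodies with an unadjusted p under 0.05. In Nrxn2 the 3 Young STD mice of library series 27 lay within the Aged STD range, and only the 2 of series 37 lay above it.

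Among release genes the synapsin Syn2 and the active zone gene Erc2 had the smallest p. Syn2 (chr6:115134902-115282006, plus strand, 16 body CpGs, 7 of them also in another gene) was at 34.9%, 35.2%, 37.6%, 42.9% and 47.0% in Young STD, at 12.7% to 36.6% with a median of 21.8% in Aged STD, and at 20.5% to 47.4% with a median of 27.7% in Aged ENR. In 6 of the 7 Aged STD mice the level was under the whole Young STD range. The difference was -15.5 ± 4.31 points (SE, limma, adjusted p = 0.219, 0.157 to 0.561 over 8 alternatives).

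Erc2 (chr14:27622428-28478537, plus strand, 39 body CpGs) was at 57.5%, 61.2%, 52.5%, 56.9% and 56.8% in Young STD, at 40.1% to 57.2% with a median of 42.4% in Aged STD and at 43.98% to 57.1% with a median of 49.7% in Aged ENR. The lowest 5 Aged STD mice were below every Young STD mouse. The difference was -11.3 ± 3.65 points (SE, limma, adjusted p = 0.270, 0.184 to 0.673 over 9 alternatives). Bsn, a giant scaffold protein of the active zone, was the third release body with an unadjusted p under 0.05 (40.7% to 31.0%).

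**Figure D4:**
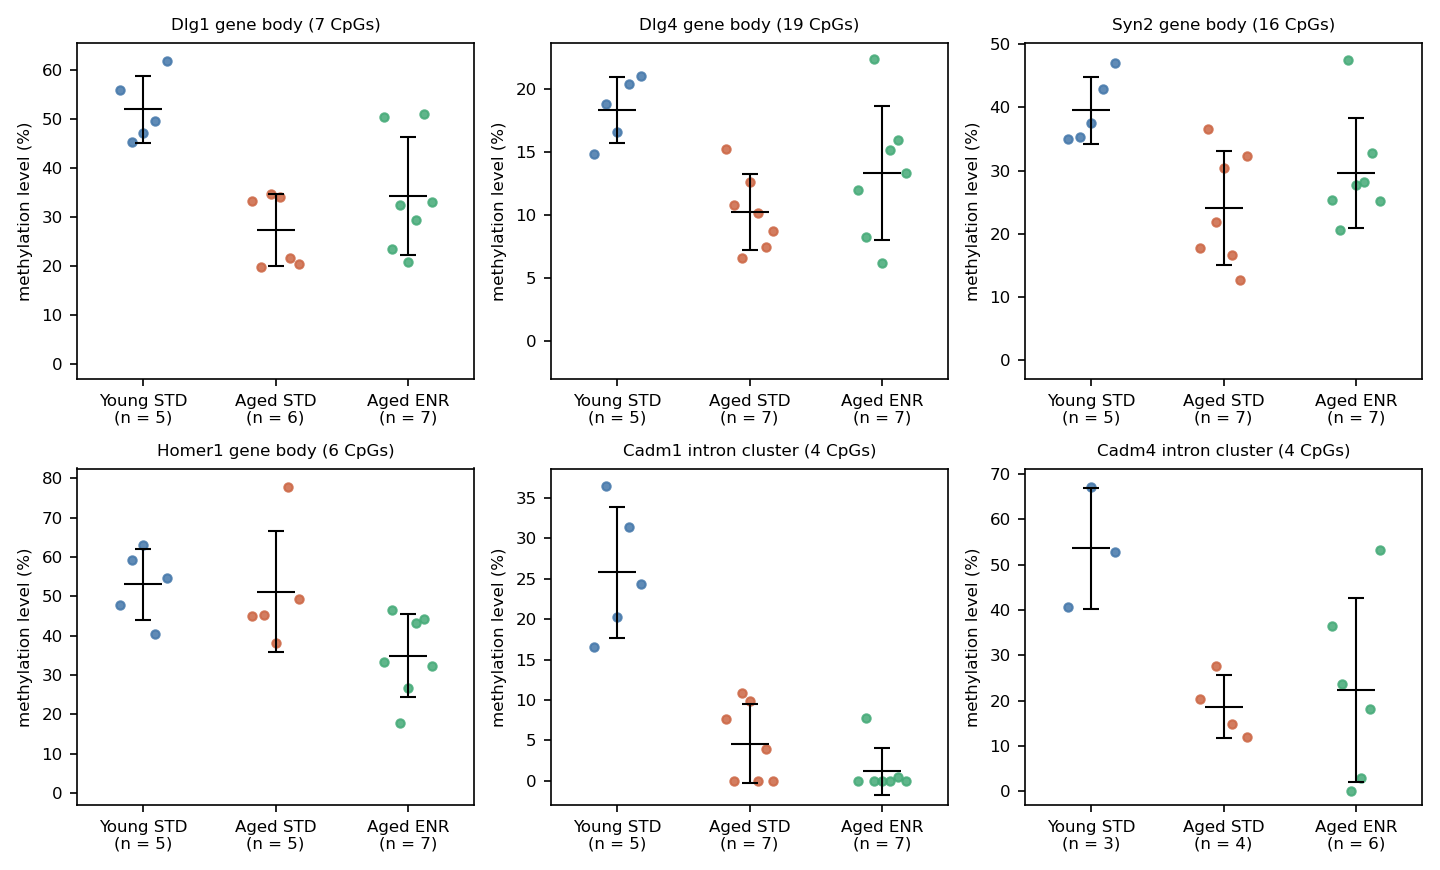
Methylation per mouse (%) in Young STD, Aged STD and Aged ENR for the bodies of Dlg1, Dlg4, Syn2 and Homer1 and for the intron clusters of Cadm1 and Cadm4; each point is a mouse. Among mice with a value, Aged STD and Young STD do not overlap in Dlg1 and in both clusters, and Aged ENR lies low in Homer1. The Cadm4 cluster has values in only 3 Young STD and 4 Aged STD mice, and these groups overlap at its first CpG.

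Enrichment in old age was compared next, with the same Aged STD mice as the control. Of the 39 bodies, 32 were higher and 7 lower in enriched than in standard-housed aged mice, where 35.7% of all bodies were lower. The number lower ran from 4 without Aged STD replicate 5 to 10 without Aged STD replicate 3, 4 or 6 or without Aged ENR replicate 7 when 1 mouse was left out, and was 13 without the 6 mice of outlying index or with the index as a covariate. The median difference was 2.25 points, against 1.13 points for all bodies. Called bodies numbered 0 by limma, as for all genes (0% called), with a smallest adjusted p of 0.943, and 2 bodies had an unadjusted p under 0.05, against 4.80% of all bodies. Without the 6 mice of outlying index the median was 0.65 points and 0 bodies had an unadjusted p under 0.05. The 2 became 0 without Aged ENR replicate 1 or 3, 1 without Aged ENR replicate 6 or 7 or Aged STD replicate 2 or 6, and 4 without Aged STD replicate 5. None of these differences passed the test.

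Of those 2 bodies one was higher in Aged ENR and the other lower. Nrxn2, whose 144 body CpGs were the most of the 39 bodies, was at 17.2%, 18.1%, 15.9%, 30.4% and 28.7% in Young STD. It was at 11.4% to 18.6% with a median of 16.4% in Aged STD and at 14.7% to 23.8% with a median of 19.9% in Aged ENR. The highest 5 Aged ENR mice lay above every Aged STD mouse. The difference was 4.10 ± 1.72 points (SE, limma, adjusted p = 0.943, 0.812 to 0.988 over 9 alternatives).

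Homer1 (chr13:93299635-93405129, plus strand, 6 body CpGs), which codes for a binding partner of metabotropic glutamate receptors, was at 47.9%, 59.3%, 63.0%, 40.5% and 54.5% in Young STD. The 5 Aged STD mice with a value were at 45.1%, 45.4%, 38.2%, 77.8% and 49.4%, and Aged ENR ran from 17.9% over 33.3% to 46.6%. The lowest 4 Aged ENR mice lay below every Aged STD mouse. The difference between Aged ENR and Aged STD was -16.3 ± 6.91 points (SE, limma, adjusted p = 0.943, 0.790 to 0.988 over 7 alternatives), -8.53 points without Aged STD replicate 5, the mouse at 77.8%, and -10.6 points without the mice of outlying index.

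The other bodies among the 2 of smallest p in their role were Shank1 (scaffold), Nlgn1 (adhesion), and Syt1 and Bsn (release). Nlgn1 (66.5% to 73.8%), Syt1 (52.7% to 60.0%) and Bsn (31.0% to 37.4%) had higher means in Aged ENR, by 7.25, 7.29 and 6.35 points. Without the mice of outlying index the differences were 1.56 points in Nlgn1, 0.66 in Syt1 and 5.05 in Bsn, and without Aged STD replicate 3 that in Nlgn1 was 4.17 points. Shank1, the master scaffold of the postsynaptic density, had a lower mean in Aged ENR, with a difference of -3.08 points (10.9% to 7.78%), or -1.15 points without the mice of outlying index. Each had an adjusted p of 0.943 by limma.

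Against Young STD, Aged ENR mice were lower in 35 of 39 bodies, where 66.9% of all bodies were lower. The median difference was -3.17 points, against -1.65 points for all bodies. Again 0 bodies were called (0% of all bodies) and the smallest adjusted p was 0.252 by limma. An unadjusted p under 0.05 was found in 6 bodies, all lower. These were 15.4% of the 39, whereas 9.72% of all bodies reached it and 8.19% did so with Aged ENR lower. They were Cadm1 (-9.04 ± 2.48 points, SE), Homer1 (-18.1 ± 5.47 points), Dlg1 (-17.6 ± 5.63 points), Cadm4 (-27.3 ± 9.44 points), Syn2 (-9.92 ± 4.20 points) and Erc2 (-6.59 ± 2.85 points). Their adjusted p by limma was 0.252 for Cadm1, 0.295 for Homer1, 0.328 for Dlg1, 0.377 for Cadm4, 0.469 for Syn2 and 0.481 for Erc2. Over their alternatives the adjusted p of these 6 ran from 0.183 for Dlg1 to 0.756 for Erc2. The unadjusted p by limma stayed under 0.05 in 5 of 8 alternatives for Syn2, in 6 of 9 for Erc2 and in all for the others. The Erc2 difference ran from -10.9 to -4.84 points over them. This comparison and the first share their Young STD mice, so their counts are not independent.

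Promoters differed little. Of 41 promoters 26 were lower in Aged STD than in Young STD (52.4% of all promoters), 17 in the contrast of Aged ENR with Aged STD (46.7%) and 22 in that of Aged ENR with Young STD (50.4%). An unadjusted p under 0.05 was reached by 2, 0 and 1 promoters, against 6.24%, 4.43% and 5.40% of all promoters, and limma called 0 in each comparison (0% of all). Leaving out 1 mouse at a time, these counts ran from 0 to 3, 0 to 2 and 0 to 2. The mean of the 34 promoters measured in every mouse was 5.42% ± 0.504 (SD, n = 5) for the Young STD group. It was 4.89% ± 0.811 (SD, n = 7) for the Aged STD group and 5.22% ± 0.411 (SD, n = 7) with enrichment. The 3 ranges overlapped.

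The promoter of Stx1a was at 20.4%, 22.1%, 22.3%, 29.8% and 31.9% in Young STD, at 3.02% to 20.7% with a median of 18.2% in Aged STD and at 5.83% to 31.0% with a median of 23.1% in Aged ENR. Only 1 Aged STD mouse lay above the lowest Young STD mouse. The difference between Aged STD and Young STD was -8.73 ± 3.35 points (SE, limma, adjusted p = 0.754, 0.574 to 0.859 over 9 alternatives), and -6.37 points without Aged STD replicate 4, the mouse at 3.02%. Without the mice of outlying index it was -5.35 points and its unadjusted p was 0.150 by limma. Most of the Stx1a difference lay in its later start window, which was at 61.5% in Young STD, 47.3% in Aged STD and 55.8% in Aged ENR, whereas the first window was at 4.62%, 2.19% and 4.08%. The 5 of its 11 CpGs printed earlier for the later window had another order, at 60.5%, 59.8% and 49.8%.

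Bsn had the smallest promoter p between Aged ENR and Young STD. It was at 19.4%, 18.9%, 15.7%, 27% and 11.8% in Young STD and at 7.97% to 16.6% with a median of 11% in Aged ENR, with Aged STD at 8.51% to 30.3% around a median of 13.8%. The difference of Aged ENR from Young STD was -6.78 ± 2.54 points (SE, limma, adjusted p = 0.862, 0.792 to 0.890 over 10 alternatives). Cadm2 had a mean of 0.191% in Young STD, 2.43% in Aged STD and 3.47% in Aged ENR over 11 promoter CpGs, an Aged STD difference of 2.23 points (limma, adjusted p = 0.794, 0.718 to 0.859 over 9 alternatives). The Aged ENR difference from Young STD was 3.28 points, and 1.86 points without Aged ENR replicate 6. The Nlgn1 promoter had the smallest p of the adhesion promoters between Aged ENR and Aged STD, at 2.61 points higher, and 1.49 points without Aged ENR replicate 4. Of its 42 CpGs 29 also lie in another gene.

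At finer scale, 241 CpG clusters of these genes could be compared between Aged STD and Young STD, 243 between Aged ENR and Aged STD, and 241 between Aged ENR and Young STD. An unadjusted p under 0.05 was reached by 16, 7 and 14 of them, 6.64%, 2.88% and 5.81%, against 5.97%, 3.98% and 5.34% of all clusters. The 16 became 25 without Young STD replicate 3, the 7 became 11 without Aged ENR replicate 7, and the 14 became 9 without Aged ENR replicate 3 or Young STD replicate 1. Limma called 0 in each comparison, for these genes and for all (0%).

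The Cadm1 cluster printed above lies in an intron, 68.3 kb from the nearest transcript start. Its 4 CpGs averaged 16.6%, 36.5%, 20.3%, 31.5% and 24.3% in the Young STD mice, 0% to 10.8% with a median of 3.95% in Aged STD and 0% to 7.77% with a median of 0% in Aged ENR. All 14 aged mice were under the lowest Young STD mouse, and 5 of the 7 Aged ENR mice were at 0%. The differences from Young STD were -21.2 ± 4.37 points for Aged STD (SE, limma, adjusted p = 0.643, 0.0567 to 0.856 over 6 alternatives) and -24.6 ± 3.65 points for Aged ENR (SE, limma, adjusted p = 0.173, 0.0124 to 0.846 over 6 alternatives). The value of 0.0124 came from the fit of all 3 groups together. A single CpG of it, at chr9:47598720, was at 30%, 36.7%, 27.3%, 42.9% and 27.5% in Young STD. It was at 0% in all but 1 of 7 Aged STD mice, which had 3.37%, and in all but 1 of 6 Aged ENR mice, which had 18.2%.

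The Cadm4 cluster was measured in few mice, at 40.7%, 67.1% and 52.8% in 3 Young STD mice and at 20.3%, 27.6%, 14.9% and 12.0% in 4 Aged STD mice. In 6 Aged ENR mice it ran from 0% to 53.1%, overlapping both. Its difference between Aged STD and Young STD was -34.9 points (limma, adjusted p = 0.792). At the first CpG of the cluster, Young STD ran from 45.5% to 91.3% and Aged STD from 0% to 62.5% (n = 5 each). These ranges overlapped, and Aged STD replicate 5, the mouse at 62.5%, had no value for the cluster.

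Clusters with the smallest p between Aged ENR and Aged STD lay in introns of Nrxn3, Unc13a and Dlgap1. The Nrxn3 cluster at chr12:89963766-89963823 was at 100% in all 4 Aged STD mice with a value and at 100%, 84.1%, 81.9% and 68.9% in 4 Aged ENR mice. The Unc13a cluster at chr8:71666094-71666165 averaged 31.4% ± 19.7 (SD) in 5 Aged STD mice and 7.61% ± 9.50 (SD) in 6 Aged ENR mice, with overlapping ranges. The Dlgap1 cluster at chr17:70748561-70748725, whose CpGs also lie in another gene, averaged 16.0% ± 10.8 (SD, n = 7) and 4.47% ± 7.16 (SD, n = 7). By limma all 3 had an adjusted p of 0.922.

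Single CpGs were counted by the size of their difference. Between Aged STD and Young STD 217 of 2425 synaptic CpGs were over 25 points lower, 8.95% against 7.19% of all CpGs, and 61 were over 25 points higher, 2.52% against 2.17%. Between Aged ENR and Aged STD 67 were that much lower (2.62% of all CpGs were) and 127 higher (4.53%), and between Aged ENR and Young STD 159 were lower (5.21%) and 56 higher (2.39%). Limma called 0 CpGs of these genes in each comparison (0% of all CpGs). An unadjusted p under 0.05 was reached by 120, 59 and 110 CpGs, against 4.42%, 2.24% and 3.95% of all.

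Of CpGs measured in every mouse compared, the largest differences downward and upward between Aged STD and Young STD were in introns of Nrxn2 and Ptprs. The Nrxn2 CpG at chr19:6519357 was at 32.8%, 61.3%, 45.2%, 71.4% and 44.8% in Young STD and at 0% to 21.4% with a median of 7.14% in Aged STD, and these groups did not overlap. In Aged ENR it ran from 0% to 96.8%. The Ptprs CpG at chr17:56443932 differed the other way, from 30.6%, 60.0%, 52.0%, 26.1% and 40.0% in Young STD to 53.5% to 91.1% with a median of 77.1% in Aged STD. Only the lowest Aged STD mouse was below the highest Young STD mouse. Both had an adjusted p of 0.760 by limma. The next in size were a Dlgap1 CpG at chr17:70729101 (77.7% to 38.5%) and a Shank2 CpG at chr7:144286807 (29.3% to 51.8%), both with overlapping ranges.

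The largest CpG differences between Aged STD and Aged ENR were read from CpGs measured in every mouse of both groups. Lower in the Aged ENR mean were a Shank1 UTR CpG at chr7:44358534 (28.2% to 4.98%) and a Rims1 intron CpG at chr1:22533187 (27.5% to 6.29%). Aged STD replicate 4, a mouse of outlying index, was at 100% at both. Without the mice of outlying index the difference at the Shank1 CpG was -6.91 points instead of -23.2, and at the Rims1 CpG -3.18 instead of -21.2 points. Higher were a Cadm1 intron CpG at chr9:47533848 (8.30% to 40.4%) and an Unc13a exon CpG at chr8:71660577 (21.5% to 55.99%). At the Cadm1 CpG single Aged ENR mice lay anywhere from 0% to 100%, and the difference was 16.2 points instead of 32.1 without the mice of outlying index. Between Young STD and Aged ENR the largest were a Cadm4 CpG at chr7:24485825, the first of the cluster printed above (72.7% to 22.2%), a Dlg2 CpG at chr7:92280960 (54.3% to 23.02%), and a pair in an intron of Nrxn3 at chr12:88895480 (13.9% to 50.9%) and chr12:88895485 (25.07% to 66.9%). In all of these the ranges of the 2 groups overlapped.

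Presynaptic and postsynaptic genes were also set side by side. The mean body level of 15 presynaptic genes was 42.7%, 37.1% and 40.0% in Young STD, Aged STD and Aged ENR, and that of 14 postsynaptic genes was 39.4%, 34.7% and 36.6%. Presynaptic bodies stood higher by 3.30 ± 3.06 points (SD over 5 mice) in Young STD, by 2.42 ± 2.66 points (SD over 7 mice) in Aged STD and by 3.42 ± 2.05 points (SD over 7 mice) in Aged ENR. Over all mice these gaps differed between groups by less than the SD between mice. The difference of the gap between Aged STD and Young STD was 0.91 points within library series 27 and -3.53 points within series 37, and that between Aged ENR and Young STD was 2.01 and -2.67 points, so neither kept its sign across the series. Presynaptic promoters stood at 8.34%, 7.08% and 7.34% (mean of 14) and postsynaptic promoters at 3.996%, 3.74% and 4.22% (mean of 16). The promoters above 10% named earlier all belong to presynaptic genes. By role, the median promoter level in Young STD was 4.23% in scaffold, 1.85% in adhesion and 2.21% in release genes. By role, the scaffold bodies averaged 34.8%, 30.4% and 31.6%, the adhesion bodies 46.2%, 40.3% and 43.2%, and the release bodies 40.3%, 34.4% and 37.3%.

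A list of 52 other synaptic genes, with synaptic adhesion, signalling and release proteins outside the 45, was set beside them. In 40 of its 43 tested bodies (93.0%) Aged STD was lower than Young STD, against 74.1% of all bodies, with a median of -5.95 points. An unadjusted p under 0.05 by limma was reached by 11 of the 43, all lower, against 13.5% of all bodies. Between Aged ENR and Young STD 38 were lower (66.9% of all bodies), with a median of -4.60 points. Of these 8 had an unadjusted p under 0.05, against 9.72% of all bodies. The larger share of lower bodies was thus not particular to the 45 genes. Between Aged ENR and Aged STD the median was 1.04 points, with 13 of 43 lower, against 1.13 points for all bodies and 2.25 points for the synaptic genes above. Of this list the smallest p between Aged STD and Young STD belonged to Nptx1, a neuronal pentraxin that clusters glutamate receptors, at 23.5% ± 11.05 (SD, n = 5) against 6.37% ± 6.18 (SD, n = 7). Between Aged ENR and Young STD it belonged to the latrophilin gene Adgrl1, at 32.1% in Young STD, 22.5% in Aged STD and 16.2% in Aged ENR. Neither passed the test (limma, adjusted p = 0.188 and 0.161). Second by p were the liprin gene Ppfia4 (22.5% to 15.7%) and the calsyntenin gene Clstn1 (53.98% in Young STD, 40.6% in Aged ENR).

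Bodies of cell type marker genes were compared as well. Of 31 markers of granule neurons, inhibitory neurons, glia and endothelium, 23 bodies could be tested, and 18 (78.3%) were lower in Aged STD than in Young STD, against 74.1% of all bodies, with a median of -5.79 points against -3.17 for all bodies. Between Aged ENR and Aged STD 3 of the 23 (13.04%) were lower, against 35.7% of all bodies, with a median of 3.69 points against 1.13. Their mean level was 51.4% in Young STD, 43.9% in Aged STD and 49.7% in Aged ENR. The cell types varied. Between Aged STD and Young STD the median was -2.14 points in 4 granule neuron bodies, -4.71 in 3 of inhibitory neurons, -0.256 in 5 of oligodendrocytes, -7.87 in 5 of astrocytes, -5.28 in 4 of microglia and -9.21 in 2 of endothelium. Between Aged ENR and Aged STD the same medians were 3.57, 0.917, 6.34, 1.31, 3.499 and 3.20 points. Methylation of a marker is not its expression, so the dissected tissue could not be checked against its label in this way, and the part of cell composition in the synaptic values was not tested.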

How the data were processed

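DNA methylation of the dentate gyrus was measured by RRBS in 19 mice, grouped by their labels. According to the methods, the authors sequenced single-end reads of 75 bases, trimmed and aligned them to mm10, and kept cytosines with at least 10 reads in at least 3 mice per group. The submitters' processing notes name Trim Galore 0.4.0, cutadapt 1.8.1, Bismark 0.16.1 and methylKit 1.5.2. The deposited values are the percent of methylated reads per cytosine and mouse, without read numbers, so the study's own test on reads could not be repeated and low and high coverage weigh alike. Of 762182 cytosines 762162 were CpGs of the reference.

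The 45 genes and all gene lists were chosen with earlier results of these data known. Positions came from GENCODE M21 (55450 genes). Promoters reached 1000 bases to either side of any transcript start. A region needed at least 5 CpGs, at least 3 of them measured in a mouse, and at least 3 mice per group. A mouse's region level was the region mean plus the mean deviation of its measured CpGs from each CpG's mean of the 3 group means. Groups were compared on the percent scale with limma 3.58.1 (R 4.3.3; moderated, trended variance, two-sided), with Benjamini-Hochberg adjustment over all bodies, promoters, clusters or CpGs of the table and a threshold of 0.05, plus a difference over 25 points for CpGs. Mice are the replicates. Named were, per comparison, the 2 bodies and 1 promoter of smallest p in each role, the 3 clusters of smallest p, and the CpGs measured in every mouse compared with the largest differences either way. A CpG of Cadm1 and others called under another model were named after their values were seen. A cluster that this rule names, and a CpG in it, are not reported here. Steps were tested on simulated data with Python 3.11.15, numpy 2.4.6, pandas 2.3.3 and scipy 1.17.1. Alternatives were other variance models, covariates for library series and composition index, a replicate block, other region definitions, and leaving out mice; leaving out the mice of outlying index was chosen after seeing the data. A coverage minimum could not be varied without read numbers.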

Additional observations from a re-analysis of the deposited data

Results flagged for a closer look

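In groups of 4 to 10 mice, a value whose gap to its nearest neighbour took up an unusually large part of the group's range (Dixon's limit at 95%) was listed here. Of 126 groups tested 22 were listed. The limit gives about 1 in 20 by chance for normally distributed values, and whether these values are so distributed was not tested. Where all other mice of a group share a value, any different value is listed. Many groups also belong to regions named for their differences. Single entries carry little weight.

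Among gene bodies, Aged STD replicate 5, a mouse of high composition index, stood out in Homer1 at 77.8% (other mice of the group 38.2% to 49.4%) and in Cadm4 at 50.6% (16.3% to 21.2%). Aged ENR replicate 4, of low index, was at 25.4% in Bsn, where the others were at 37.2% to 43.0%. Young STD replicate 5 was at 13.01% in Shank1, where the others were at 7.13% to 8.47%.

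Among promoters, Aged STD replicate 4 was at 3.02% in Stx1a (others 16.3% to 20.7%) and Aged STD replicate 1 at 30.3% in Bsn (8.51% to 16.4%). In Aged ENR, replicate 6 was at 12% in Cadm2 (0.476% to 4.24%), replicate 7 at 4.81% in Dlgap4 (5.87% to 6.53%) and replicate 4 at 13.5% in Nlgn1 (5.10% to 6.78%). Young STD replicate 4 was also high in Nlgn1, at 8.83% (4.43% to 5.52%).

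Among clusters and single CpGs, the Cadm1 intron cluster was at 7.77% in Aged ENR replicate 2, where the others were at 0% to 0.524%. Its CpG at chr9:47598720 was at 18.2% in the same mouse and at 3.37% in Aged STD replicate 1, with 0% in all other mice of these groups that had a value. The Ptprs CpG at chr17:56443932 was at 5.88% in Aged ENR replicate 6 (62.7% to 93.3%). The Shank1 CpG at chr7:44358534 was at 65.2% in Young STD replicate 5 (4.96% to 18.8%). The Rims1 CpG at chr1:22533187 was at 54.8% in Young STD replicate 4 (others 0%) and at 100% in Aged STD replicate 4 (0% to 38.3%). In Aged STD, with all other measured mice at 0%, the Erc2 CpG at chr14:28383739 was at 3.70% in replicate 4, the Dlgap4 CpG at chr2:156648360 at 46.7% in replicate 2, and the Bsn CpG at chr9:108183737 at 100% in replicate 5.

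Over whole sets, the promoter mean was 6.11% in Aged ENR replicate 5 (others 4.89% to 5.23%), and the gap of presynaptic minus postsynaptic bodies was -0.822 points in the same mouse (3.09 to 5.16 points).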

How the results depend on the processing

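The differences of the named bodies and promoters kept their sign under every alternative run. Called counts differed from 0 in few settings. Leaving out each mouse in turn, the number of synaptic bodies called between Aged STD and Young STD ranged from 0 to 1, the 1 being Dlg1 without Aged STD replicate 5. Fitting all 3 groups together called 1 CpG between Aged STD and Young STD, and 1 CpG and 1 cluster, that of Cadm1, between Aged ENR and Young STD. A single prior variance without a trend called 3 and 2 CpGs in these comparisons. Those reported here lay in Cadm1, Erc2, Dlgap4 and Bsn, and the cause was not tested. Shares of all bodies, clusters and CpGs called in these settings are not given here, so these called counts have no background beside them. The presynaptic minus postsynaptic difference between Aged STD and Young STD crossed 0 when mice were left out (-1.78 to 0.31 points).

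The replicate numbers did not pair the mice: same-numbered mice of different groups had correlations of their deviations between -0.14 and 0.10 over 6244 bodies. With a replicate block the number of synaptic bodies called stayed at 0 in each comparison, and 7, 3 and 5 bodies had an unadjusted p under 0.05 (11, 2 and 6 without it), where 10.3%, 4.21% and 10.7% of all bodies did (13.5%, 4.80% and 9.72% without it). The Cadm4 body difference between Aged STD and Young STD was -14.3 points with the block. With the composition index as a covariate these counts were 6, 2 and 4 (7.05%, 4.86% and 7.06% of all bodies), with median body differences of -2.77, 0.74 and -2.52 points. Without the mice of outlying index they were 6, 0 and 5 (10.9%, 4.70% and 11.6% of all bodies), with medians of -3.96, 0.65 and -3.42 points. The index as a covariate took Erc2 to -7.26 points between Aged STD and Young STD, and Syt1 and Bsn to 4.41 and 3.76 points between Aged ENR and Aged STD. Without the mice of outlying index the Cadm2 promoter differed by 3.63 points (Aged STD minus Young STD) and that of Nlgn1 by 1.71 points (Aged ENR minus Aged STD).

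With 5 to 7 mice a group and no read numbers, differences of a few points in one gene could not be told from the spread between mice. Regions of 6 or 7 measured cytosines, such as Dlg1, Homer1 and Cadm4, rest on few sites. A minimum of coverage was not run as an alternative.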
